A study of Mus musculus with 74 samples.

Results

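The Sox2 region is the stretch of mouse chromosome 3 from 30000001 to 39000000 (mm9 assembly), a span of 9 Mb around the gene Sox2. Its members were chosen by position alone: all windows of 40 kb that lie fully inside the span. There were 225 such windows among 3990 on chromosome 3 and 68162 in the whole table. Genome architecture mapping (GAM) had been used to score each window as present or absent in thin slices of single nuclei. The study held 1 group of 74 libraries, each made from 1 nuclear profile, the part of a nucleus that falls within a cryosection. The cells were 46C mouse embryonic stem cells of strain 129/Ola, a line in which green fluorescent protein reports on the Sox1 gene. They had been grown with serum and LIF and, for the last day, in the serum-free medium ESGRO Complete. All libraries thus shared the cell line, the strain and the culture. The study's sample sheet lists the 74 libraries as slices of 1 biological replicate, so the errors and p-values below measure the spread between slices of that culture. No knockout, treatment or second cell type was part of these data.

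Sox2 encodes a transcription factor of the SOX family that keeps embryonic stem cells pluripotent. The gene lies inside the long noncoding transcript Sox2ot, and in embryonic stem cells it is driven by a distal enhancer cluster downstream of it, in a stretch with no other protein-coding gene. GAM reads proximity from slice counts, because a thin cut that catches a locus also tends to catch what lies next to it. Neighbouring windows of one chromosome fall into the same slice because the fibre is continuous, which gives runs of positive windows. Topologically associating domains are stretches whose loci meet each other more than they meet loci outside, and a boundary between domains appears as a low point of linkage across it.

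The GENCODE annotation placed Sox2 (ENSMUSG00000074637.3) at chromosome 3, 34548927 to 34551383, on the + strand, a gene of 2.457 kb. Sox2ot (ENSMUSG00000090828.2) spanned 34003360 to 34581541 on the same strand, and no exon of it overlapped Sox2, so Sox2 lay in an intron of Sox2ot. In all, 60 protein-coding and 5 lincRNA genes overlapped the region. The 3 stretches of sequence that follow are shown because they come from the Sox2 window and from the most and the least detected windows of the region. They were read from the mm9 reference sequence (NCBIM37), 5′ to 3′, with CpG dinucleotides in capitals. The first is the 250 bases before the start of Sox2, chr3:34548677-34548926 on the + strand, with 70.8% G and C and 25 CpG dinucleotides. The second is the 250 bases before the start of Ankrd50, the gene of the most detected window, chr3:38383767-38384016 on the - strand, with 67.6% G and C and 17 CpG dinucleotides. The last is the central 250 bases of the window that no library detected, chr3:31619876-31620125 on the + strand, with 50% G and C and 2 CpG dinucleotides.
Sox2 upstream: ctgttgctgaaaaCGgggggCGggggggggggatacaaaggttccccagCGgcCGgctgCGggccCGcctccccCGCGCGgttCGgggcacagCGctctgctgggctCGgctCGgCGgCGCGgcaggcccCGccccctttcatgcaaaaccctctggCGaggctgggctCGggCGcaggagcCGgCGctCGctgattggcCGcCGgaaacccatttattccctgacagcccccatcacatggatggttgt
Ankrd50 upstream: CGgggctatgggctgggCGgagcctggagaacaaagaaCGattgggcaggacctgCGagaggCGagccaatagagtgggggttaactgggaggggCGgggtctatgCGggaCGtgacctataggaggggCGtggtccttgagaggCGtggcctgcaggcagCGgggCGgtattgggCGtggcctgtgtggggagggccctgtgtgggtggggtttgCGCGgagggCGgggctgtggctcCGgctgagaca
never-detected window, centre: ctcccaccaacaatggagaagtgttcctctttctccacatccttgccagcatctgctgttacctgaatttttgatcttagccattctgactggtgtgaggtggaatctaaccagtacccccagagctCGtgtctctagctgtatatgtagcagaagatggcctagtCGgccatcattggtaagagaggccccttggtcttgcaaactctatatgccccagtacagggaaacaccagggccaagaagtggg

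The windows of the region were positive in 0 to 11 of the 74 libraries, with a median of 5 and a mean of 5.34 ± 2.04 (SD over 225 windows). Most were close to the median, with 150 windows positive in 4 to 7 libraries. On the rest of chromosome 3 the median was 4 and the mean 4.31 ± 2.21. The window that starts the gene Ankrd50, an ankyrin repeat protein, was detected most, in 11 libraries (38360001 to 38400000). The 4 windows detected in 10 libraries lay over Mecom (30400001 to 30440000), over Arpm1 and Mynn (30480001 to 30520000), over Spata5 (37360001 to 37400000) and over the end of Ankrd50 (38320001 to 38360000). These 5 windows lay toward the ends of the region, between 2.84 and 4.12 Mb from the Sox2 window.

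At the low end, 15 windows (6.67%) were positive in 2 libraries or fewer, compared with 19.8% of windows on the rest of chromosome 3. That 19.8% includes 115 windows never detected, 75 of them in the first 3 Mb of the chromosome, which are unsequenced. The mean and the coverage given for the rest of chromosome 3 include them too. The window 31600001 to 31640000 was positive in 0 of 74 libraries, which allows a share of up to 4.05% of libraries by the rule of 3 counts of the total (95% Wilson upper limit 4.93%). It lies in a stretch of 0.56 Mb without a protein-coding gene (31240001 to 31800000). A single library was positive in each of 3 windows. The window 31520001 to 31560000 was positive in library f14b1, 35280001 to 35320000 in f14a3, and 36880001 to 36920000, inside 4932438A13Rik, in f14d4. All windows of the region had complete reference sequence, so none of these low values came with gaps in the assembly.

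The window that holds Sox2 (34520001 to 34560000) belonged to the low end. It was positive in 2 of 74 libraries, f13c1 and f13g1, which is 2.70% (95% Wilson interval 0.744% to 9.33%, counting error only). Only 4 windows of the region were positive in fewer libraries. The window before it was positive in 5 libraries and the window after it in 7. Both of these neighbours were positive in 4 libraries, and in 3 of these the Sox2 window itself was negative. Over the whole region, a window between positive neighbours was negative in 168 of 625 cases (26.9%), and on the rest of chromosome 3 in 30.6% of cases. The Sox2 window had 45.7% G and C, rank 12 of the 225 windows, and the most CpG dinucleotides of all of them, 831 against a region median of 336. Across windows, detection followed neither measure closely, with Pearson's r = 0.117 for G and C content and r = 0.0634 for CpG count (225 windows that share the same 74 libraries, given as a description). Of 3 sets of 75 windows ordered by G and C content, the lowest was positive in 4.96 ± 2.05 libraries, the middle in 5.61 ± 1.87 and the highest in 5.44 ± 2.15 (SD). The part of base composition in the low detection of the Sox2 window was not tested.

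**Figure D1:**
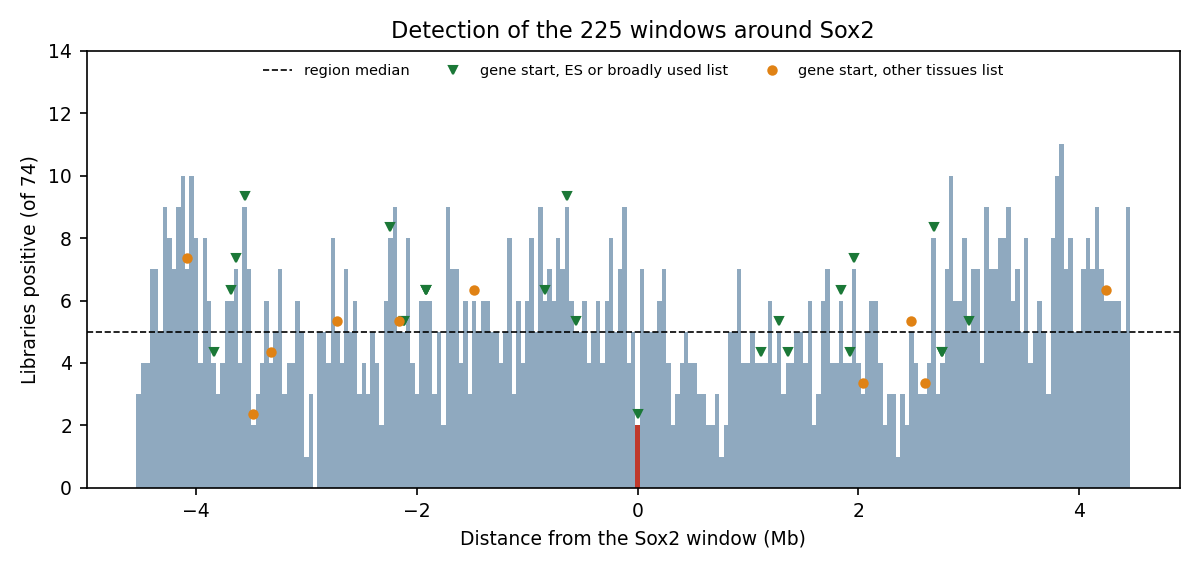
Number of libraries positive (of 74, vertical axis) for each of the 225 windows, by distance from the Sox2 window in Mb; the red bar is the Sox2 window, the dashed line the region median of 5, and symbols mark gene starts of both gene lists. The Sox2 window stands at 2, below both of its neighbours, and the highest bar, at 11, is the window that starts Ankrd50.

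The region mixes genes that embryonic stem cells or most cells use with genes known from other tissues, and detection was read for 2 lists of such genes. The list of genes used in embryonic stem cells or broadly had 24 members, all with their start in the region, in 20 windows. Their start windows were positive in a median of 5.5 libraries, with 12 above the region median, 7 below it and 5 at it. Of the 13 genes listed for other tissues, 10 started in the region, with a median of 5 libraries, 3 above, 4 below and 3 at the region median. Slc2a2, Lamp3 and Mcf2l2 did not start in it. Across all 60 protein-coding gene starts the median was 5 libraries, with 29 above, 21 below and 10 at the region median.

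Within the first list, the highest start windows were those of Fxr1, an RNA-binding protein of the fragile X family, and Skil, a repressor of TGF-β signalling, with 9 libraries each. Pik3ca, the catalytic subunit of a PI3 kinase, and Fgf2, a growth factor, each started in a window positive in 8 libraries. The start windows of Prkci, an atypical protein kinase C of cell polarity, and of Bbs7, a subunit of the BBSome of cilia, were each positive in 7. Actl6a, a subunit of chromatin remodelling complexes, started in a window positive in 6 libraries, Dnajc19 and Spry1, an inhibitor of receptor tyrosine kinase signalling, in windows positive in 5, and Atp11b and Ccna2, the cyclin A of dividing cells, in windows positive in 4. Sox2 was the lowest of the 24. Within the second list, Mecom, a zinc finger regulator of blood stem cells, started in a window positive in 7 libraries and Fat4, a large cadherin, in a window positive in 6. The interleukin genes Il2 and Il21 started in windows positive in 5 and 3 libraries, and Cldn11, the claudin of myelin and testis, in a window positive in 2. The 2 lists thus spanned nearly the same levels, 2 to 9 and 2 to 7 libraries.

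Detection of windows with and without a protein-coding gene differed by less than the error. In the region, 106 windows (47.1%) overlapped such a gene and were positive in 7.23% of libraries on average, compared with 7.20% for the other 119 windows. The difference was 0.0288 ± 0.730 percentage points (SE over 74 libraries), and 25 libraries were higher and 21 lower in gene windows (two-sided sign-flip permutation test over libraries, p = 0.969). The largest gene-free stretch of the region began directly after Sox2. It ran from 34560001 to 35640000 (27 windows, 1.08 Mb) and its windows were positive in 4.11 ± 1.60 libraries. The gene-free stretch before Sox2, from 34000001 to 34520000, which is covered by Sox2ot, was at 5.69 ± 1.55 libraries (13 windows).

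The positive calls of the region numbered 1201, and 46 of the 74 libraries held at least 1 of them, whereas 28 held none. Among the 17 full stretches of 9 Mb on chromosome 3, the number of libraries with at least 1 call ranged from 33 to 46 with a median of 36. The region was at the top of this range, tied with the stretch directly before it. The 10 libraries with the most calls held 61.03% of them. Library f14d4 was positive for 119 of the 225 windows (52.9%), f14a4 for 80 (35.6%) and f14e6 for 79 (35.1%). The coverage of the rest of chromosome 3 in these libraries was 24.1%, 7.76% and 18.4%. The libraries positive for the Sox2 window were f13c1, with 66 windows of the region (29.3%), and f13g1, with 29 (12.9%). Their coverage of the rest of the chromosome was 4.06% and 4.57%.

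Positive windows formed short runs. There were 504 runs of consecutive positive windows, of which 259 (51.4%) were a single window and 13 were 10 windows or longer. The mean run was 2.38 ± 0.162 windows (leave-one-library-out SE) in the region and 2.17 ± 0.102 on the rest of chromosome 3, a difference of 0.213 ± 0.106. The longest run, in f14c5, had 29 windows (1.16 Mb). When gaps of up to 10 windows were bridged and stretches with at least 5 positive windows were kept, 13 libraries had 1 such stretch, 11 had 2 and 4 had 3 or more. The median length of the longest stretch in these libraries was 1.76 Mb, and the longest, in f14a4, was 5.88 Mb. Thus in most slices that cut the region, a part of it was present rather than the whole.

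**Figure D2:**
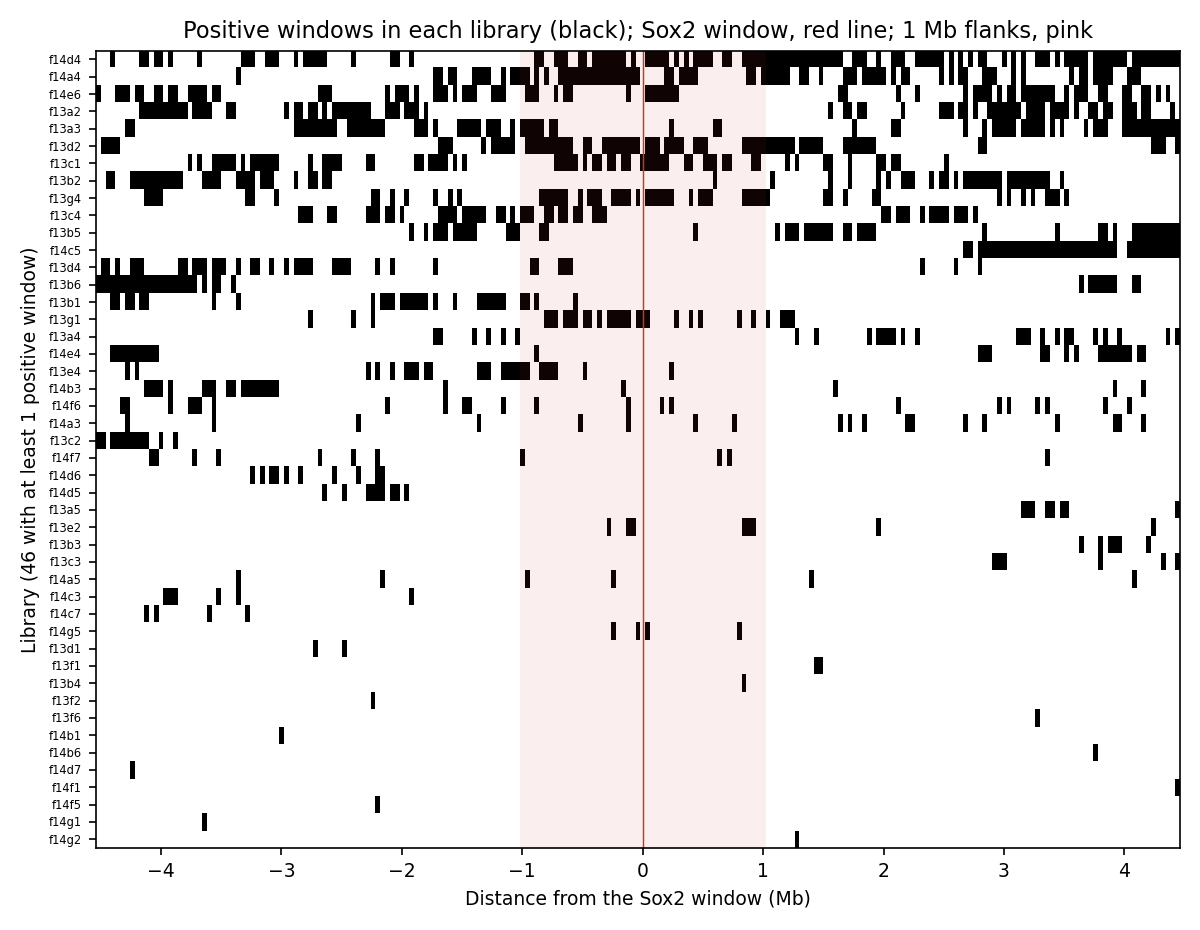
Positive windows (black) of the 46 libraries with at least 1 call, sorted from most to fewest, by distance from the Sox2 window in Mb; the red line is the Sox2 window and the pink band its 1 Mb flanks. Only f13c1 and f13g1 are black at the red line, f14d4 is at the top with 119 windows, and f14c5 has the longest unbroken run.

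Whether the region was cut more often than the rest of its chromosome was asked within each library. Coverage of the region was 7.21% ± 11.6 (SD, n = 74), with a lowest value of 0%, a median of 0.444% and a highest of 52.9%. Coverage of the rest of chromosome 3, its never-detected windows included, was 5.82% ± 6.64, with a median of 4.12%. The mean difference of 1.39 ± 1.15 percentage points (SE) was not larger than the spread (two-sided sign-flip permutation test, p = 0.229). By count, 32 libraries were higher and 37 lower in the region. The region held no call in 28 libraries and the rest of chromosome 3 in 5. A slice misses a short span more often than a long one, so this count leans toward lower and decides nothing. Library names begin with f13 or f14, which the labels do not explain. Among the 34 f13 libraries the difference was 2.89 percentage points (p = 0.135, permutation test), and among the 40 f14 libraries it was 0.121 (p = 0.933, permutation test). Of the 17 full stretches of 9 Mb on chromosome 3, the region ranked 3 for coverage and 4 for G and C content.

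Within the region, the 9 blocks of 1 Mb had coverages from 5.24% (35 to 36 Mb) to 8.97% (38 to 39 Mb). No block passed when each was set against the other 8, and the lowest adjusted p was 0.461, for the block from 36 to 37 Mb, whose unadjusted p was 0.0513 (sign-flip permutation test, Benjamini-Hochberg over 9 blocks). That block, with Ccna2 and Anxa5, was at 5.62% ± 13.02 (SD, n = 74), a difference from the other blocks of -1.79 ± 0.902 percentage points. It was the lower of the 2 in 36 libraries and the higher in 9. The number of blocks with an unadjusted p under 0.05 was 0, and it was between 0 and 2 when 1 library at a time was left out. By the exact sign test, which counts libraries and ignores the size of the difference, 7 of the 9 blocks passed after adjustment. Each block had 28 to 36 libraries lower and 9 to 18 higher than its other 8 blocks. Single blocks held a call in 17 to 26 libraries, and the whole region in 46. A slice misses 1 Mb more often than 8 Mb, so this test leans toward lower for any block and decides nothing on single blocks.

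**Figure D3:**
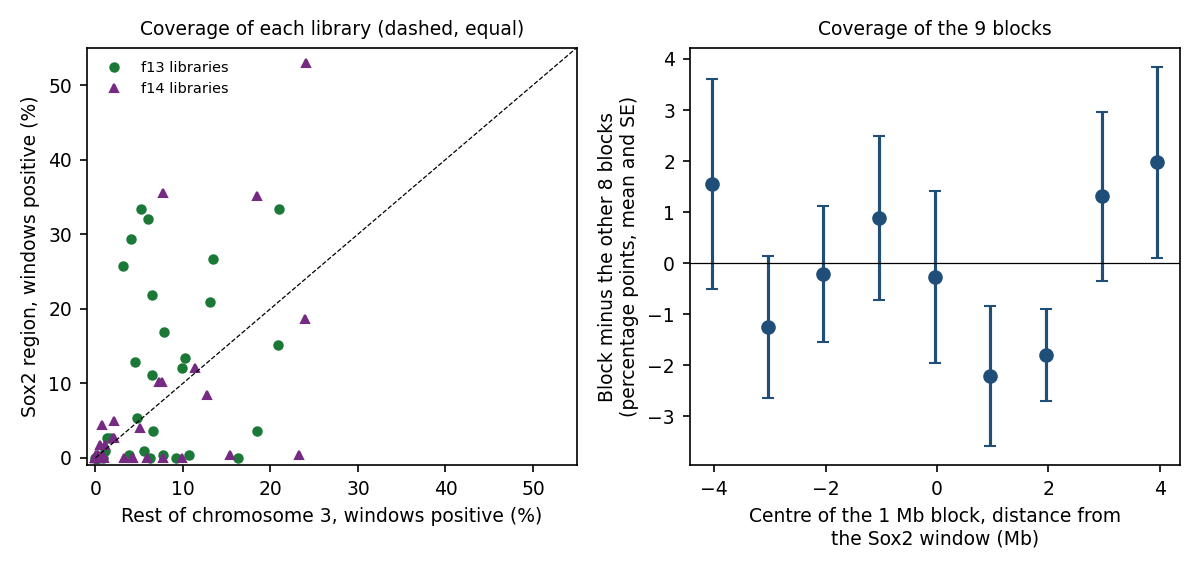
Left, coverage of the region (vertical axis, % of windows positive) against coverage of the rest of chromosome 3 for each of the 74 libraries, by name prefix; right, coverage of each 1 Mb block minus that of the other 8 in percentage points (mean and SE over 74 libraries), by distance from the Sox2 window. In the left plot 28 libraries lie at 0% for the region, and in the right plot the block from 36 to 37 Mb lies at -1.79 percentage points.

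Closer to Sox2, the 1 Mb before it had a higher mean coverage than the 1 Mb after it, by a margin near the threshold. The 25 windows before Sox2, which hold Fxr1, Dnajc19, Ttc14, Ccdc39 and most of Sox2ot, were positive in 8.43% of libraries on average (SD 19.3, n = 74). The 25 windows after it, which hold no protein-coding gene, were positive in 5.51% (SD 15.05). The difference was 2.92 ± 1.18 percentage points (SE), with 12 libraries higher before Sox2, 5 higher after it and 57 equal (two-sided sign-flip permutation test, p = 0.0116). This comparison was chosen after the values were seen, and its p was 0.0464 when adjusted over the 4 comparisons added in that way. The adjusted call was lost without any 1 of 12 libraries (f13a3, f13b1, f13b5, f13c4, f13d2, f13d4, f13e4, f13g1, f14a4, f14a5, f14b3 or f14e4), where adjusted p reached 0.0924. It was also lost with isolated calls set to negative (2.76 percentage points, adjusted p = 0.105, permutation test). Among the 34 f13 libraries the difference was 4.94 percentage points (adjusted p = 0.0694, permutation test), and among the 40 f14 libraries it was 1.20 (adjusted p = 0.606, permutation test). Whether the prefixes differ was not tested. The exact sign test gave an adjusted p of 0.287. Library f14a4 had 21 positive windows before Sox2 and 9 after it, f13d2 had 20 and 15, f13c4 had 12 and 0, and f13g1 had 15 and 6. In the other direction, f14d4 had 15 and 18, and f13c1 had 12 and 14. Together, the 51 windows of the Sox2 window and its flanks were positive in 6.89% of libraries and the other 174 windows of the region in 7.31%, a difference of -0.419 ± 1.57 percentage points (sign-flip permutation test, p = 0.791).

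Linkage between windows was described by co-segregation, the percent of libraries in which both windows of a pair were positive. In the region it fell from 4.20% ± 0.901 (SE) for adjacent windows to 2.25% ± 0.604 at 1 Mb and 1.25% ± 0.479 at 4 Mb. Pairs on the rest of chromosome 3 fell from 3.14% ± 0.484 to 1.76% ± 0.315 and 1.15% ± 0.248 at the same distances. The mean of the region was numerically higher at all 6 distances tested, by between 1.07 percentage points at 0.04 Mb and 0.105 at 4 Mb. By count, more libraries were lower than higher in the region at each distance. There were 24 higher and 30 lower at 0.04 Mb, and 11 higher and 38 lower at 4 Mb. The region has far fewer pairs than the rest of the chromosome, so a slice more often holds none of them. These counts therefore lean toward lower and decide nothing. None of the mean differences was larger than the spread between libraries. Adjusted p was between 0.372 and 0.791 (sign-flip permutation test, Benjamini-Hochberg over 6 distances). At 2 and 4 Mb the sign depended on single libraries. Without f14d4 the differences were -0.0747 and -0.113 percentage points, without f14a4 they were -0.0390 and -0.00400, and without f14e6 the difference at 4 Mb was -0.0384.

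The normalized linkage D′ takes the difference between observed co-segregation and the product of both detection frequencies, and divides it by its largest possible size. It is 1 for windows as often together as their frequencies allow and -1 for windows never found together. Mean D′ in the region was 0.616 ± 0.0482 (leave-one-library-out SE) for adjacent windows, 0.360 ± 0.0831 at 0.4 Mb, 0.168 ± 0.117 at 1 Mb and -0.0445 ± 0.187 at 2 Mb. On the rest of chromosome 3 it was 0.560 ± 0.0376, 0.242 ± 0.0580, 0.0995 ± 0.0684 and -0.0551 ± 0.0715. The region was higher by 0.118 ± 0.0618 at 0.4 Mb and by 0.115 ± 0.0572 at 0.6 Mb, where the gap was widest against its error, and by 0.0106 ± 0.150 at 2 Mb. Over all 17450 pairs up to 4 Mb apart, mean D′ was 0.0569 ± 0.136 in the region and 0.0215 ± 0.0706 for other pairs of chromosome 3 weighted to the same distances, a difference of 0.0354 ± 0.101. Without f14d4 this difference was -0.0350, without f14a4 it was -0.000128, and without f13c1 it was 0.00282. Dividing summed observed by summed expected co-segregation gave a difference of the opposite sign, 3.92 ± 0.646 in the region and 4.52 ± 0.509 elsewhere, or -0.604 ± 0.621. Over pairs up to 4 Mb, neither measure separated the region from its chromosome beyond the error. At single distances, the D′ difference of 0.115 at 0.6 Mb was just over 2 SE, with no test and 17 distances read. The ratio of observed to expected differed in the opposite direction, by -0.301 ± 0.825 at 0.4 Mb and -0.292 ± 0.785 at 0.6 Mb.

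**Figure D4:**
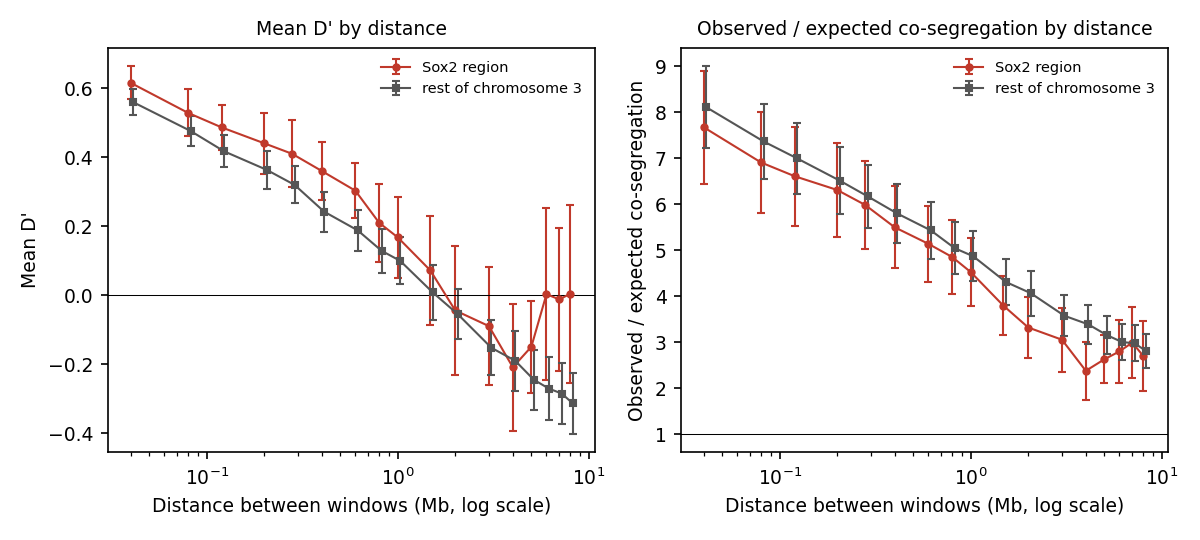
Mean D′ (left) and observed over expected co-segregation (right) by distance between windows in Mb on a log axis, for pairs in the region (red) and pairs on the rest of chromosome 3 (grey), with leave-one-library-out SE. On the rest of the chromosome both measures are lower at 4 Mb than for adjacent windows and lower still at 8 Mb, whereas in the region D′ is at -0.209 at 4 Mb and 0.00415 at 8 Mb, with SE of 0.185 and 0.258. The region lies above the rest for D′ at 0.4 Mb (0.360 and 0.242) and below it for the ratio at 4 Mb (2.38 and 3.39).

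How often adjacent windows shared their call was described by concordance, with no test. Concordance, the share of neighbours of positive windows that were positive too, was 58.3% ± 2.91 in the region and 53.9% ± 2.18 on the rest of chromosome 3 (leave-one-library-out SE). The difference was 4.38 ± 1.84 percentage points, and it was 4.56 ± 2.17 among f13 and 3.49 ± 3.79 among f14 libraries. Concordance is not corrected for detection, which was higher in the region. With that correction, adjacent windows differed by 0.0560 ± 0.0386 in D′ and by -0.437 ± 1.07 in the ratio of observed to expected, both under 2 SE. By uncorrected concordance the region ranked 2 from the highest among the 17 stretches of 9 Mb. By mean D′ over pairs up to 4 Mb it ranked 6, and by the ratio of observed to expected 14. Isolated positive windows, with no positive neighbour, made up 21.6% ± 2.87 of the calls of the region and 25.6% ± 2.11 elsewhere. With these isolated calls set to negative the difference in concordance was 1.73 percentage points, and with windows merged to 200 kb it was -0.554. The depth of the libraries, on which broken runs could depend, is unknown, and its part was not tested.

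The partners of Sox2 were sought with a Fisher's exact test over the 74 libraries between the Sox2 window and each other window of chromosomes 1 to 19 and X. Of 61473 windows tested, 0 passed after Benjamini-Hochberg adjustment, that is 0% in the table as a whole and 0 of the 223 tested windows of the region. With 2 positive libraries the test cannot give a p below 0.000370, so at least 456 windows would have had to reach that value for any to pass, and 2 did. At an unadjusted p under 0.05, 303 windows were called (0.493% of those tested), among them 16 of the 223 in the region (7.17%) and 13 of 3650 on the rest of chromosome 3 (0.356%). Mean D′ between the Sox2 window and the other windows of the region was -0.456 ± 0.292, compared with -0.0262 for pairs of chromosome 3 at the same distances, a difference of -0.430 ± 0.305. These pairs were matched on distance and not on detection. With 2 positive libraries, D′ is -1 for any window found in neither of them. The ratio of observed to expected co-segregation was 2.87 ± 1.67, compared with 4.19 for matched pairs, a difference of -1.32 ± 1.73.

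Joining the Sox2 window to the window on either side gave a locus of 120 kb that was positive in 8 libraries. These were f13c1, f13d2, f13g1, f13g4, f14a4, f14d4, f14e6 and f14g5. Of 61471 windows tested against it, 10 passed (0.0163%), and all 10 lay in the region. The lowest adjusted p, 0.00216, belonged to the window 0.24 Mb before Sox2 (34280001 to 34320000, inside Sox2ot), which was positive in 8 libraries and shared 7 of them with the locus. The window that starts Fxr1, 0.64 Mb before Sox2, was positive in 9 libraries and also shared 7 (adjusted p = 0.00319). The window 0.20 Mb after Sox2, in the gene-free stretch, was positive in 6 libraries, all 6 of them shared (adjusted p = 0.00319). The other windows before Sox2 that passed lay at 0.72, 0.20 and 0.16 Mb, and those after it at 0.08, 0.12, 0.92 and 1.04 Mb, with adjusted p between 0.0127 and 0.0247.

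The windows between 0.20 and 0.92 Mb after Sox2 held none of these 10. Most of them were positive in 4 libraries or fewer, which hardly allows a call whatever their linkage. No lack of linkage is therefore read from that stretch. Farther out, the windows at 0.92 Mb (35440001 to 35480000) and 1.04 Mb (35560001 to 35600000) were among the 10. The first was positive in 7 libraries, 6 of them shared with the Sox2 locus, and the second in 5 libraries, all 5 shared. At an unadjusted p under 0.05 the locus had 86 of 221 windows of the region (38.9%), against 2.06% in the whole table. Windows of the region lie within a few Mb of the locus, and mean co-segregation fell with distance in the region and on the rest of chromosome 3. No share matched on distance was computed, so nothing particular to the locus is read from this. The number that passed depended on single libraries. It was 3 without f13d2, f13g4 or f14d4, 5 without f13c1 or f13g1, 6 without f14a4 and 16 without f14g5. Within either prefix the locus had only 4 positive libraries, and the lowest p the test can then give is 2.16e-05 for f13 and 1.09e-05 for f14. At least 24 and 13 windows would have had to reach it, 2 and 2 did, and 0 passed in each, so these subsets could hardly give a call. Adjustment over chromosome 3 alone gave 28.

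The same test was run with each window of chromosome 3 in turn. At least 1 partner on chromosome 3 passed for 49 of 224 windows of the region (21.9%) and for 491 of 3650 elsewhere (13.5%), with 13.9% over the chromosome. For partners more than 1 Mb away the shares were 13 of 224 (5.80%) and 5.92%, with 5.91% over the chromosome, so the share of windows with a distant partner was near the background. The difference was not tested. Windows of the region were also positive in more libraries, 5.36 on average against 4.44, and more positive libraries give this test more power. The most partners of any window on the rest of chromosome 3 were 60. In the region, the most partners on chromosome 3 were those of the window that starts Fxr1 and of the window 0.92 Mb after Sox2, with 12 each, of which 2 and 8 lay over 1 Mb away. The window 0.16 Mb before Sox2 and the window 3.08 Mb after it had 10 each. Those at 0.20 Mb before Sox2 and at 1.04 Mb after it had 8 each, as had the window that starts Ankrd50.

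Across Sox2, the flanks were linked. Mean D′ between the 25 windows before and the 25 windows after it was 0.354 ± 0.111, compared with 0.0999 ± 0.0672 for other pairs of chromosome 3 at the same distances, a difference of 0.254 ± 0.113. The ratio of observed to expected co-segregation differed in the same direction, 6.25 against 4.91, by 1.34 ± 1.40. Within the whole neighbourhood of 51 windows, mean D′ was 0.362 ± 0.105 and exceeded its distance-matched value by 0.156 ± 0.105. At least 1 window of this neighbourhood was positive in 23 libraries, at least 1 window before Sox2 in 21 and after it in 17, with both sides positive in 15.

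With the rest of the region the neighbourhood's mean D′ did not differ beyond the error from that of other loci at these distances. Mean D′ was -0.0564 ± 0.182, and distance-matched pairs had -0.0959, a difference of 0.0395 ± 0.144. Without f14d4 the difference was -0.0612, without f14a4 -0.0109 and without f13c1 -0.00645. The side before the neighbourhood was below its distance-matched value, by -0.0821 ± 0.133, and the side after it above, by 0.162 ± 0.212, both within the error. By the ratio of observed to expected, the side before it was at 2.73 against 3.89 for matched pairs, a difference of -1.16 ± 0.585, and the side after it at 3.62 against 3.72. By block, the neighbourhood's D′ was highest with the rest of 35 to 36 Mb, the block of Atp11b, Dcun1d1 and Mccc1, at 0.369 ± 0.207 (matched 0.0759). The difference there was 0.294 ± 0.185, and by the ratio of observed to expected 2.01 ± 1.70. D′ was lowest with 30 to 31 Mb, the block of Mecom, Prkci and Skil, at -0.360 ± 0.143 (matched -0.197, difference -0.163 ± 0.123). Both are the extremes of all blocks read, with no test, and both D′ differences were under 2 SE. For the block from 30 to 31 Mb the ratio of observed to expected co-segregation was 1.76 ± 0.538, compared with 3.38 for matched pairs, a difference of -1.61 ± 0.557.

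Among the 36 pairs of 1 Mb blocks, D′ was above its distance-matched value in 24 and below it in 12. The difference exceeded 2 SE for 2 pairs, 34 to 35 Mb with 35 to 36 Mb (0.257 ± 0.128) and 37 to 38 Mb with 38 to 39 Mb (0.252 ± 0.124). The first of these joins the block of Sox2 to the gene-free stretch and Atp11b, and the second joins Fgf2, Spata5 and Spry1 to Ankrd50 and Fat4. By the ratio of observed to expected, the first pair was above its matched value too, by 2.67 ± 1.83, whereas the second was below it, by -0.214 ± 0.996. Over all pairs the balance was the other way, with the ratio of 8 of the 36 pairs above their matched value, 0 of them by over 2 SE, and 5 pairs below it by over 2 SE. These counts over 36 pairs carry no test.

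Boundaries were described by insulation, the mean D′ between the 10 windows before and the 10 after a junction, a square of 400 kb. Over the 224 junctions of the region it ranged from -0.00488 to 0.644, with a mean of 0.368 and an SD of 0.180, and on the rest of chromosome 3 the mean was 0.266 with an SD of 0.253. The junctions on either side of the Sox2 window were among the most linked of the region, at 0.609 ± 0.101 and 0.609 ± 0.111, ranks 215 and 213 from the lowest of 224. Neither of these junctions was a local minimum.

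Of the junctions, 13 were local minima, lower than the 5 junctions on each side. On the side before Sox2, the lowest was at 31480000 in the gene-free stretch after Slc7a14 (-0.00488 ± 0.234). The minimum nearest to Sox2 lay 0.12 Mb before it and was shallow (0.568 ± 0.0974). The minimum 0.72 Mb before it, at 33800000 near Ccdc39, was at 0.321 ± 0.207. After Sox2, insulation fell to 0.0289 ± 0.186 at 35040000, 0.52 Mb after the Sox2 window, and to 0.0448 ± 0.318 at 35520000, both within the gene-free stretch, where windows were positive in few libraries. It reached -0.00223 ± 0.335 at 36480000, beside Exosc9, Ccna2 and Bbs7. The minimum at 37200000, beside Il21, Fgf2, Bbs12 and Cetn4, was at 0.215 ± 0.232. It was the only one that stayed a minimum in all 74 tables that left out a library and was one in the f13 and in the f14 libraries alone.

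The positions of minima were not stable between the prefixes. The f13 libraries gave 13 minima and the f14 libraries 14, and 4 of each lay within 80 kb of one of the other. By position alone, 32.7% of junctions lay within 80 kb of an f14 minimum and 29.9% within 80 kb of an f13 minimum. Over junctions, insulation in the 2 sets of libraries had Pearson's r = 0.127 (a description over 224 overlapping squares). The median SE of a junction was 0.194, larger than the SD of insulation across the region. That SE belongs to the level at a junction, and no error of a minimum's depth below its neighbours was computed. The depth of the minima was not tested.

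**Figure D5:**
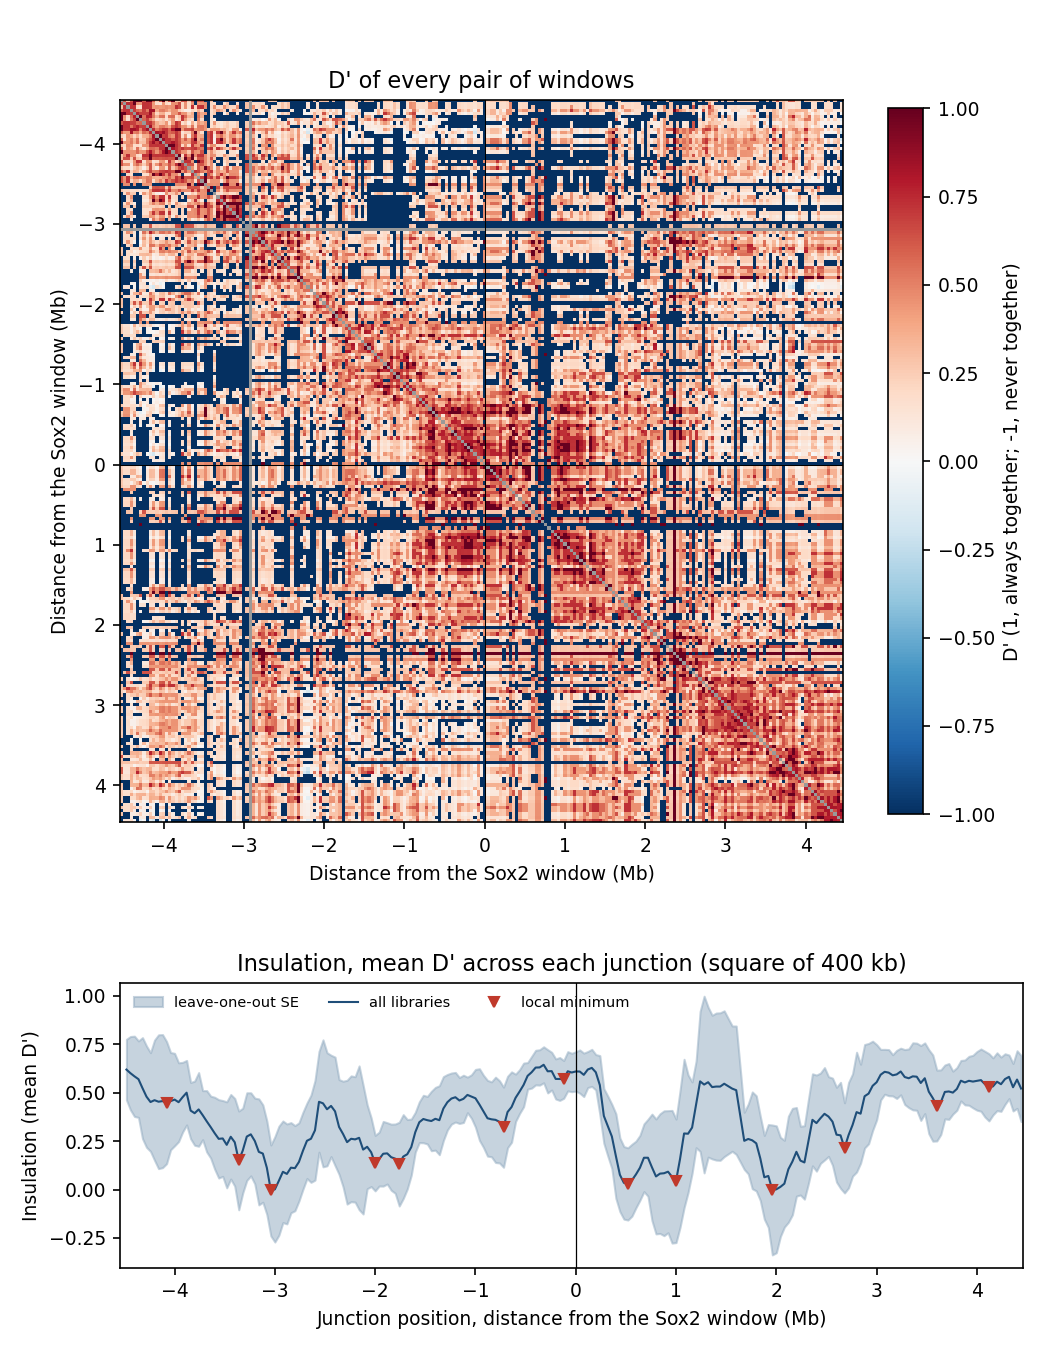
Top, D′ of every pair of windows of the region by distance from the Sox2 window in Mb (red, together more than expected; blue, less; grey, the diagonal and the window that no library detected); bottom, insulation at each junction with its leave-one-library-out SE and the 13 local minima. Mean D′ between the 1 Mb flanks across Sox2 is 0.354. Insulation is 0.609 at both edges of the Sox2 window and 0.0289 at 0.52 Mb after it, inside the flank after Sox2, so the flanks are not evenly linked.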

How the data were processed

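DNA of 74 single nuclear profiles was amplified (WGA4) and prepared with Nextera. Per the labels, reads were aligned with Bowtie2 2.1 to mm9. The other unit in use is a call: the authors deposited, for each 40 kb window, 1 (positive) or 0 (negative). The methods state a fixed read threshold for multiplexed libraries, whether it holds for single profiles is not given in the sources used here, depth is unknown, and a higher threshold would break runs and lower coverage. Chromosome 3 of the NCBIM37 reference had the length of the table (159599783 bases), and GENCODE vM1 genes were used. All 74 libraries formed 1 group.

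Members and gene lists were chosen with earlier results of these data known. Named genes were Sox2, those of the 3 most and least detected windows, those at minima, and both lists. Sox2ot, which spans Sox2, and the genes of windows tied with the 3 were added after the values were seen. The values of 1 listed gene are not reported here. Tests were two-sided sign-flip permutation tests (100000 resamples, smallest p 1e-05) and Fisher's exact tests, with a threshold of 0.05 after Benjamini-Hochberg adjustment. D′, concordance and insulation carry leave-one-library-out standard errors and no test. Gene-window, flank, block-pair, tile and chromosome-wide partner comparisons were added after seeing the data. Statistics were tested on simulated tables. Python 3.11.15, NumPy 2.4.6 and SciPy 1.17.1 were used.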

Additional observations from a re-analysis of the deposited data

How the results depend on the processing

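Apart from leaving out single libraries, 89 alternatives were run over 15 results (10 of them added after seeing the data), and in 71 of these a tested difference kept its direction and call, an untested one stayed within 1 SE and a count within 1.5 times. A further 4 left the count of windows called with the Sox2 window at 0, which says nothing of stability, since its 2 positive libraries hardly allow a call. In the f13 libraries alone, both D′ differences were below 0 within that SE, at -0.0260 and -0.0838. Summed observed over expected co-segregation gave -0.604 for the region against chromosome 3 and -0.627 for the Sox2 neighbourhood with the rest of the region, where D′ gave 0.0354 and 0.0395. The difference in concordance was 1.73 percentage points without isolated calls and -0.554 with 200 kb windows. In the f13 libraries alone, co-segregation at 4 Mb differed by -0.0396 percentage points. The exact sign test called 7 blocks in place of 0, but it compares spans of unequal length and decides nothing on single blocks. The difference of the Sox2 flanks, 2.92 percentage points with an adjusted p of 0.0464, no longer passed by the exact sign test (2.92, adjusted p = 0.287), without isolated calls (2.76, 0.105), in the f13 libraries alone (4.94, 0.0694) or in the f14 libraries alone (1.20, 0.606). The 120 kb Sox2 locus had 10 called windows where the Sox2 window had 0. The locus had 0 in the f13 and 0 in the f14 libraries alone, where 4 positive libraries hardly allow a call, and 28 with adjustment over chromosome 3. The causes were not tested. The sign-flip test assumes symmetric differences, and the coverage differences had a skewness of 1.01.

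Leaving out 1 library at a time, the coverage difference ranged from 1.017 to 1.72 percentage points and co-segregation differences from 0.793 to 1.26 at 0.04 Mb, 0.697 to 1.09 at 0.2 Mb, 0.513 to 0.847 at 0.4 Mb, 0.251 to 0.599 at 1 Mb, -0.0747 to 0.295 at 2 Mb and -0.113 to 0.213 at 4 Mb. None of these passed (p between 0.126 and 0.992). The difference of the Sox2 flanks ranged from 2.30 to 3.12 percentage points with adjusted p between 0.0208 and 0.0924, under 0.05 in 62 of 74. D′ differences ranged from -0.0350 to 0.0646 and, for the Sox2 neighbourhood, from -0.0612 to 0.0789, concordance from 3.29 to 4.71, minima from 11 to 14, and windows called with the 120 kb locus from 3 to 16. Called blocks stayed at 0.

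The f14 libraries held no positive call of the Sox2 window, so its partners could not be tested in them alone. The labels give 1 group, so there were no groups to pair by replicate number, and the sign-flip and sign tests compared windows within each library. With a window positive in about 5 of 74 libraries, single pairs cannot be ranked, and slices from 1 culture say nothing of the spread between cultures.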
